A study of Homo sapiens with 16 samples.

Results

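The YEATS domain gene family comprises the 4 human genes YEATS2, YEATS4, MLLT1 and MLLT3, which were picked by symbol from an RNA-seq count table of 12676 genes. All 4 were listed and all 4 passed the filter on low counts. The YEATS domain is a protein module that binds lysines carrying an acetyl or another acyl group on histone tails. Each member brings this module to a different chromatin machine. YEATS2 is a scaffold subunit of the ATAC acetyltransferase complex, YEATS4 (also called GAS41) is shared by the SRCAP and TIP60 complexes that place the histone variant H2A.Z, and MLLT1 (ENL) and MLLT3 (AF9) are related proteins that work with the super elongation complex and with the H3K79 methyltransferase DOT1L. The comparison asks whether the transcripts of the 3 other members rose when YEATS2 was depleted.

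The cells were H1299, an established human non-small cell lung cancer line. They received a lentiviral vector with either a non-targeting shRNA (shCtrl, also called shNT, 2 libraries) or an shRNA against YEATS2 (shYEATS2, 2 libraries), with polybrene at 8 µg/ml, followed after 48 h by puromycin at 2 µg/ml for 4 to 7 days according to the labels. The labels name neither a clone nor the YEATS2 shRNA, which the study's text gives as shY2-1 for its main RNA-seq. The study also reports RNA-seq with a further YEATS2 shRNA of partial effect, and only some of the lower genes were shared. No label here names a further shRNA, so effects of YEATS2 loss and of the shRNA itself cannot be told apart. The remaining 12 of the 16 samples of the series are ChIP-seq samples that were not used here. The study's text calls the libraries independent biological replicates, while the labels do not say whether they came from separate cultures, and the p-values measure the spread between these libraries. The listed genes received between 34718921 and 39417787 reads per library. Of the markers of the line and of other cell types, VIM, KRT8 and KRT18 were listed, and EPCAM, NKX2-1, SFTPC, PTPRC, PECAM1 and CDH5 were not, where every listed gene had at least 101 reads in some library.

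The members lie on 4 chromosomes (GRCh37, which is hg19). YEATS2 (ENSG00000163872) spans chromosome 3 from 183415585 to 183530412 on the plus strand, and its longest coding transcript has 31 exons. YEATS4 (ENSG00000127337) spans chromosome 12 from 69753490 to 69784650 on the plus strand, with 7 exons. MLLT1 (ENSG00000130382) spans chromosome 19 from 6210392 to 6279986 and MLLT3 (ENSG00000171843) chromosome 9 from 20341667 to 20622498, both on the minus strand, with 12 and 11 exons. The longest stretch shared by the longest coding transcripts of any pair was 18 bases, between YEATS2 and MLLT1. MLLT1 and MLLT3 shared at most 17 bases. Of the exon bases of YEATS2, 1164 overlap the antisense gene YEATS2-AS1, which was not in the count table. Without knowledge of strand, reads of such a pair cannot be told apart.

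YEATS2, the targeted gene, was checked first. Its TMM-scaled count, that is, its reads scaled to the mean library size, was 4482 and 4104 in both shCtrl libraries against 665 and 673 with shYEATS2. The knockdown libraries thus lay far below both controls and within a few reads of each other. The level in YEATS2 KD cells was 15.6% of the control, with a log2 fold change of -2.68 (standard error 0.10, 95% interval -2.93 to -2.44, FDR 0.000583 in the quasi-likelihood test of edgeR). In RNA from a whole culture, a fall in every cell and a fall in a share of the cells cannot be told apart.

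YEATS4 was the only other member that changed, and it fell. It had 1871 and 1997 scaled reads in the shCtrl libraries against 1222 and 967 with shYEATS2, so the groups did not overlap. Its mean was 1934 ± 89.1 (SD, n = 2) in shCtrl cells against 1095 ± 180 (SD, n = 2) after knockdown. The level in YEATS2 KD cells was 56.6% of the control, with a log2 fold change of -0.82 (standard error 0.13, 95% interval -1.14 to -0.51, edgeR FDR 0.00382). Of all genes tested, 25.3% were called at an FDR under 0.01, 12.5% lower and 12.9% higher. The groups did not overlap in 79.6% of genes, with the knockdown libraries lower in 39.8% and higher in 39.7%. The fall of YEATS4 stood at percentile 7.77 of all log2 fold changes, counted from the largest fall. It was steeper without shYEATS2 replicate 1 (log2 fold change -0.999) than without shYEATS2 replicate 2 (-0.66). Without shCtrl replicate 2 the value was -0.77 and the edgeR FDR was 0.0111, just outside the threshold of 0.01.

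MLLT1 and MLLT3 were not called in either direction. MLLT1 had 2187 and 1806 scaled reads in the shCtrl libraries against 2237 and 1826 with shYEATS2. The groups overlapped, and in each group replicate 1 was the higher library. The log2 fold change of MLLT1 was 0.02 (standard error 0.14, 95% interval -0.31 to 0.36, edgeR FDR 0.898), so the upper end of the interval was a 1.28-fold rise. With the replicate number as a block the interval was -0.17 to 0.22.

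MLLT3 had 1435 and 1360 scaled reads in the shCtrl libraries against 1363 and 1312 with shYEATS2. Here too the groups overlapped, and the whole range of the 4 libraries was narrow. The log2 fold change was -0.06 (standard error 0.10, 95% interval -0.29 to 0.17, edgeR FDR 0.608), with an upper end at a 1.12-fold rise. These changes are relative to TMM scaling, and scaling by total counts shifted the median over all genes from -0.0019 to 0.118 on the log2 scale. On total counts the log2 fold changes were 0.14 for MLLT1 and 0.056 for MLLT3, and the upper ends of their intervals were at 1.38-fold and 1.22-fold. Of the 3 members that were not targeted, 1 was therefore lower and none was higher. None was higher at an unadjusted p under 0.05 either, where 3636 of all 12676 genes were, or with DESeq2, edgeR's exactTest or limma-trend.

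**Figure D1:**
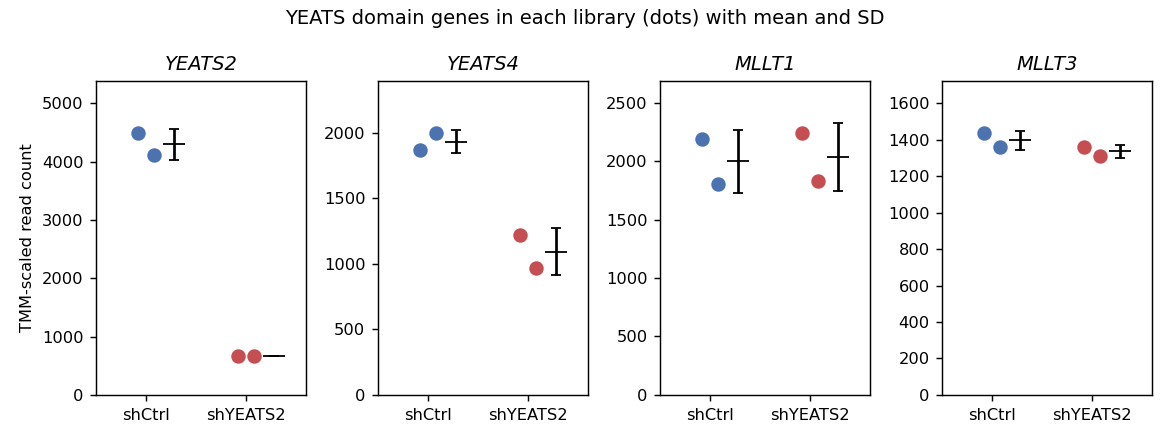
TMM-scaled read counts (y axis, linear from 0) of the 4 YEATS domain genes in the 2 shCtrl (blue) and 2 shYEATS2 (red) libraries, with the mean and SD of each group in black. The knockdown libraries lie below both controls for YEATS2 (665 and 673) and YEATS4 (1222 and 967), while the groups overlap for MLLT1 and MLLT3. The y axis of each panel has its own range.

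**Figure D2:**
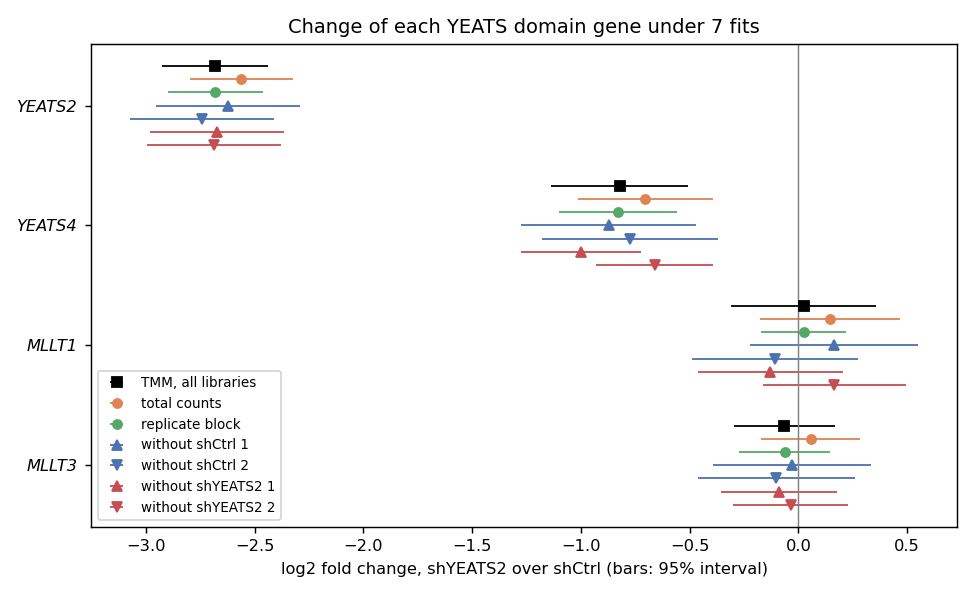
Log2 fold change of shYEATS2 over shCtrl (x axis) with its 95% interval for each member, with all libraries on the TMM scale (black squares), on total counts, with a replicate block, and with each library left out in turn. All intervals of YEATS2 and YEATS4 lie below 0 and all of those of MLLT1 and MLLT3 include 0, where the point estimates range from -0.13 to 0.17.

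Levels of different genes were compared per length, as RPKM, that is, TMM-scaled reads per kilobase of exon at a common library size, with all annotated exons of a gene merged. In shCtrl cells YEATS4 had the highest level of the family at 29.8 ± 1.37 (SD, n = 2). YEATS2 at 11.5 ± 0.718 and MLLT1 at 11.5 ± 1.55 did not differ beyond their spread, and MLLT3 was lowest at 4.75 ± 0.180. Per length of the longest coding transcript in place of merged exons, YEATS2 in the shCtrl libraries (18.9 and 17.3) lay above MLLT1 (13.3 and 10.9), so the order of that pair depends on the length used. In YEATS2 KD cells the order was YEATS4 at 16.9 ± 2.78, MLLT1 at 11.7 ± 1.68, MLLT3 at 4.54 ± 0.122 and YEATS2 at 1.80 ± 0.0144, with merged exons.

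With merged exons the mean level of YEATS4 fell by 12.9 RPKM and that of the targeted gene fell by 9.72 RPKM. Per length of the longest coding transcript the mean went from 36.2 to 20.5 for YEATS4 and from 18.1 to 2.81 for YEATS2, so which of them lost more RPKM is not settled by these values. The level of MLLT1 differed by 0.200 and that of MLLT3 by -0.205 on the same scale. The summed level of the 4 members was 58.3 and 56.8 in the shCtrl libraries against 38.1 and 31.7 with shYEATS2. The sum of YEATS4, MLLT1 and MLLT3 alone was 46.3 and 45.8 in the controls against 36.4 and 29.9 in the knockdown libraries. Both sums were lower in both knockdown libraries. As a share of the family sum, YEATS2 went from 20.6% and 19.4% to 4.68% and 5.70%, and MLLT1 from 21.6% and 18.3% to 33.8% and 33.2%. The share of MLLT1 was thus larger at nearly the same level of its own, because the sum was smaller. The share of YEATS4 was 49.4% and 54.2% in the controls and 49.4% and 47.1% in the knockdown libraries.

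**Figure D3:**
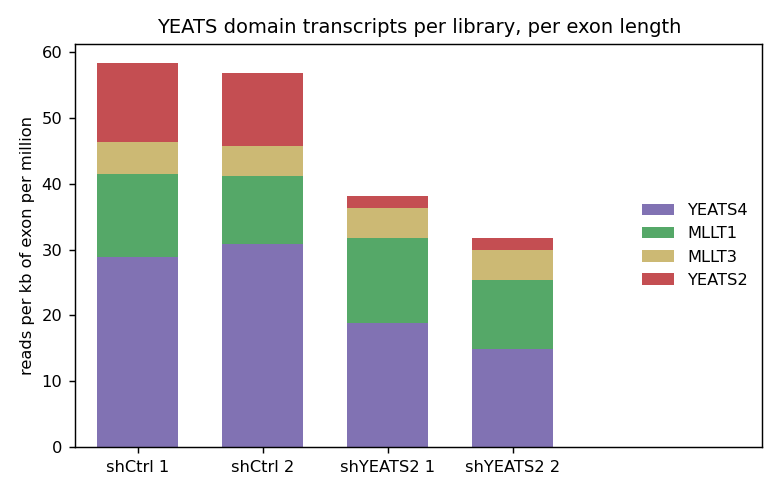
RPKM from TMM-scaled reads (y axis, linear from 0) of the 4 members, stacked for each of the 4 libraries. The stack is 58.3 and 56.8 high in the shCtrl libraries and 38.1 and 31.7 in the shYEATS2 libraries, with smaller segments of YEATS2 and YEATS4 and segments of MLLT1 and MLLT3 of about the same height.

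Among the 12123 genes that averaged 100 scaled reads or more, those whose centred log2 counts over the 4 libraries lay nearest to each member were listed. For YEATS2 these were UTP14A, AHNAK2 and TMCC3, at Euclidean distances of 0.376, 0.486 and 0.562 on the log2 scale. For YEATS4 they were SCRN3, LRFN4 and HINT3 (0.0342, 0.0423 and 0.0478), which fell by 0.79, 0.80 and 0.86 on the log2 scale. For MLLT1 they were NT5E, CCDC22 and HIC2 (0.0230, 0.0319 and 0.0356), and for MLLT3 RANBP3, POM121C and BCL10 (0.0108, 0.0151 and 0.0176). With 4 libraries, many genes share such a pattern.

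The listed genes next to each member on the chromosome were also read. KLHL24, at a distance of 13277 bases from YEATS2, was higher (log2 fold change 1.22, edgeR FDR 0.00188), whereas MAP6D1 on the other side, 3297 bases away, had a log2 fold change of -0.63 (edgeR FDR 0.0221). Beside YEATS4, CPSF6, 85351 bases away, had a log2 fold change of -0.40 (edgeR FDR 0.0160). FRS2, which codes for an adaptor of growth factor receptors and lies 79478 bases away, had 0.39 (edgeR FDR 0.0191). The neighbours of YEATS4 thus had values on both sides of 0, and neither passed the threshold. Next to MLLT1, RFX2, 10808 bases away, had -0.54 (edgeR FDR 0.0157) and CLPP, 81555 bases away, had -0.16. Next to MLLT3, FOCAD, 35809 bases away, had -0.12. The nearest listed gene on the other side of MLLT3 lay 886495 bases away and had 107 to 201 scaled reads. Its log2 fold change was 0.68 (edgeR FDR 0.0348). Of the 8 neighbours, KLHL24 was the only one called, where 25.3% of all genes tested were called.

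The 7-base word AAGTTCA was looked up in the members on the transcript strand. It had been chosen among all words of its length because 3′ UTRs that carry it went with lower levels in these same libraries, so the shares of genes called lower below restate that choice, and they are not matched for UTR length. In 1732 of 11390 genes (15.2%) the longest coding transcript has AAGTTCA in its 3′ UTR, each UTR taken at its own length. Of those genes 21.8% were called lower, against 11.6% of the others. YEATS4 carries the word nowhere in its transcript of 1468 bases, and neither does MLLT1 in 4532 bases. MLLT3, which was not called, carries it 1 time in its 3′ UTR of 4774 bases, and YEATS2 carries it 1 time before its 3′ UTR. Both sites are shown with their flanks because they are the only ones in the family, with the word in capitals, 5′ to 3′ on the transcript strand, from the GENCODE transcripts on GRCh37.
YEATS2, chr3:183454551-183454580, plus strand: cgtcagagttcAAGTTCAttttaaggacag
MLLT3, chr9:20344038-20344067, minus strand: gtaaattgataAAGTTCAgaaaaacttatc
These letters are a description of the transcripts, and a match is not a site of action.

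The transcripts of the subunits with which YEATS2 works in the ATAC complex changed in both directions. The study reports that YEATS2 knockdown left the stability of ATAC components unchanged, and protein was not measured here. Of 12 ATAC partners listed and tested, 3 were lower and 1 was higher (25% and 8.33%, against 12.5% and 12.9% of all genes), and the median log2 fold change was -0.12 against -0.0019 over all genes. WDR5, a WD40 scaffold that is also part of histone H3K4 methyltransferases, had 5873 and 5367 scaled reads in the shCtrl libraries against 1518 and 777 with shYEATS2. It fell to 20.4% of the control, with a log2 fold change of -2.29 (standard error 0.28, edgeR FDR 0.00176). This came nearest to YEATS2 itself among all members of the lists, although shYEATS2 replicates 1 and 2 lay well apart.

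ATAC holds either of the related acetyltransferases KAT2A and KAT2B beside a further one, KAT14. KAT2A and KAT2B moved in opposite directions, and KAT14, listed as CSRP2BP, had a log2 fold change of -0.24 and was not called (edgeR FDR 0.295). KAT2A (GCN5) had 3269 and 3103 scaled reads in the controls and 1926 and 1194 in the knockdown libraries, a log2 fold change of -1.03 (standard error 0.21, edgeR FDR 0.00792). KAT2B (PCAF) had 1479 and 1398 in the controls and 2019 and 2093 in the knockdown libraries, a log2 fold change of 0.51 (standard error 0.09, edgeR FDR 0.00563). Neither pair of groups overlapped, which held for 79.6% of all genes. DR1, a histone fold protein that represses transcription through TBP, had -0.55 (edgeR FDR 0.00532), and POLE3, a histone fold subunit shared with DNA polymerase epsilon, had -0.29 and was not called (edgeR FDR 0.104). On total counts only WDR5 of the 3 stayed lower, since KAT2A (-0.91, edgeR FDR 0.0103) and DR1 (-0.43, edgeR FDR 0.0104) just missed the threshold. With 1 library left out, DR1 and KAT2B were not called without shCtrl replicate 1 (-0.52 and 0.55), shCtrl replicate 2 (-0.58 and 0.48) or shYEATS2 replicate 2 (-0.48 and 0.49), nor was KAT2A without shCtrl replicate 1 (-0.997), which left 1 lower call.

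Of the 22 SRCAP and TIP60 partners of YEATS4, 5 were lower and 3 were higher (22.7% and 13.6%, against 12.5% and 12.9% of all genes). Their median log2 fold change was 0.03. The cargo of these machines, the H2A.Z variant, is encoded by 2 genes, and both were lower. H2AFZ had 15510 and 16833 scaled reads in the controls and 6417 and 5151 in the knockdown libraries, with a log2 fold change of -1.48 (standard error 0.13, edgeR FDR 0.000975). H2AFV had -0.56 (edgeR FDR 0.00529). Histone genes have close copies in the genome, so their read counts are less certain.

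Among the proteins of the machines, the ATPase RUVBL2 fell by 0.80 on the log2 scale (edgeR FDR 0.00260) and the actin-related ACTL6A fell by 0.73 (edgeR FDR 0.00454). On the other side, MBTD1, a reader of methylated histone H4 within TIP60, rose by 1.05 (edgeR FDR 0.00243) and the chromodomain protein MORF4L1 rose by 0.68 (edgeR FDR 0.00307). Its relative MORF4L2 had -0.37 and was not called (edgeR FDR 0.0150). The remaining calls, named here after their values were seen, were SRCAP, which was higher (log2 fold change 0.48, edgeR FDR 0.00795), and RUVBL1, which was lower (-0.52, edgeR FDR 0.00836). YEATS4 therefore fell within a set whose members went both ways. Lower calls numbered 3 on total counts, where H2AFV had -0.45, 2 without either shCtrl replicate 1 or shCtrl replicate 2, and 3 without shYEATS2 replicate 2, and higher calls numbered 1 without either control library. H2AFV was not called without shCtrl replicate 1 (-0.60), shCtrl replicate 2 (-0.53) or shYEATS2 replicate 2 (-0.48), and ACTL6A (-0.76 and -0.71) and MORF4L1 (0.70 and 0.66) were not called without shCtrl replicate 1 or shCtrl replicate 2.

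The super elongation complex carries MLLT1 or MLLT3 to paused RNA polymerase II together with the kinase P-TEFb. Of 16 genes of this complex and of the inhibitors of P-TEFb, 12 were listed. Of these 12, 4 were higher and 1 was lower (33.3% and 8.33%, against 12.9% and 12.5% of all genes). Their median log2 fold change was 0.35. AFF1, a scaffold of the complex, had 1805 and 1937 scaled reads in the controls and 3098 and 3441 in the knockdown libraries, and it rose by 0.80 on the log2 scale (standard error 0.10, edgeR FDR 0.00192). ELL2, an elongation factor, rose by 0.77 (edgeR FDR 0.00295), CCNT2, a cyclin of P-TEFb, by 0.47 (edgeR FDR 0.00689), and EAF1, which binds ELL proteins, by 0.51 (edgeR FDR 0.00795). The other scaffold, AFF4, had 0.52 and was not called (edgeR FDR 0.0105). With AFF4, 7 of the 12 listed genes were not called, as were MLLT1 and MLLT3 themselves.

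EAF2, the relative of EAF1, was lower (log2 fold change -0.94, edgeR FDR 0.00749) at only 185 and 182 scaled reads in the controls and 97.3 and 93.7 in the knockdown libraries. Its call was lost with any 1 of the 4 libraries left out (-0.97 to -0.91) and on total counts (-0.82). Of the 4 higher calls, 2 were left without shCtrl replicate 1 or without shYEATS2 replicate 2, where EAF1 (0.56 and 0.46) and CCNT2 (0.49 and 0.46) were not called. Without shCtrl replicate 2, 1 was left, since EAF1 (0.45), CCNT2 (0.45) and ELL2 (0.72) were not called. AFF4 was called higher without shYEATS2 replicate 1 (0.64). It was also called higher on total counts (0.64), with DESeq2 (0.52), exactTest (0.52), limma-trend (0.51) and the replicate block (0.51). Only 5 of 14 alternatives left AFF4 uncalled.

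The other machines of MLLT1 and MLLT3 are the DOT1L complex, the Polycomb proteins CBX8 and BCOR, and the PAF1 elongation complex that recruits MLLT1 and MLLT3. None of the 11 genes of these was called lower or higher by edgeR's quasi-likelihood test. At an unadjusted p under 0.05, 2 were lower and 2 higher, where 3528 of all 12676 genes were lower and 3636 higher. DESeq2, edgeR's exactTest and limma-trend called 1, 2 and 0 of the 11 lower and none higher. Over all genes they called 2190, 2497 and 1620 lower and 2159, 2596 and 1648 higher. With the replicate block 2 of the 11 were lower and 1 was higher. DOT1L, named here after its value was seen, had 2993 and 2409 scaled reads in the controls and 3606 and 3537 in the knockdown libraries (log2 fold change 0.40, edgeR FDR 0.0341). PAF1, the namesake subunit of its complex, had -0.46 (edgeR FDR 0.0222), and it was called lower without shYEATS2 replicate 1 (-0.63).

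Genes of other domain families that include readers of acetylated lysine were described last, and binding by each member was not assessed. Of 42 bromodomain genes, 39 were listed. Of these 39, 10 were higher and 3 were lower (25.6% and 7.69%, against 12.9% and 12.5% of all genes). Their median log2 fold change was 0.20. The largest rise among them was in BAZ2A, or TIP5, a subunit of a complex that silences ribosomal RNA genes, with 9157 and 8948 scaled reads in the controls and 17971 and 22320 in the knockdown libraries (log2 fold change 1.15, standard error 0.12, edgeR FDR 0.00130). Its relative BAZ2B rose by 0.91 (edgeR FDR 0.00128), BRPF3, a scaffold of acetyltransferase complexes, by 1.03 (edgeR FDR 0.00146), BRWD3 by 0.94 (edgeR FDR 0.00183), and BRD2 by 0.87 (edgeR FDR 0.00240). All of these kept their call with each library left out in turn.

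BRD2 belongs to the BET proteins, which bind acetylated histones through a pair of bromodomains. Its relative BRD3, named here after its value was seen, had a log2 fold change of 0.21 and was not called (edgeR FDR 0.114). The lower calls were in TRIM28, a corepressor of zinc finger proteins (log2 fold change -0.76, edgeR FDR 0.00193), in KAT2A given above, and in ATAD2, which was named after its value was seen (-0.62, edgeR FDR 0.00881). BAZ1B, with the highest count of those not called, had -0.36 (edgeR FDR 0.0237). On total counts 16 bromodomain genes were higher and 1 was lower, and 5 were higher without shCtrl replicate 1, shCtrl replicate 2 or shYEATS2 replicate 2. Lower calls numbered 1 without shCtrl replicate 1, and with the replicate block they numbered 7.

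Double PHD finger proteins also bind acylated lysines. None of the 5 genes of this kind was called by edgeR's quasi-likelihood test, DESeq2, exactTest or limma-trend. At an unadjusted p under 0.05, 1 was higher and 0 lower, where 3636 of all 12676 genes were higher and 3528 lower. DPF2, with the highest count, had 3448 and 3257 scaled reads in the controls and 3732 and 3528 in the knockdown libraries (log2 fold change 0.11, edgeR FDR 0.344).

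**Figure D4:**
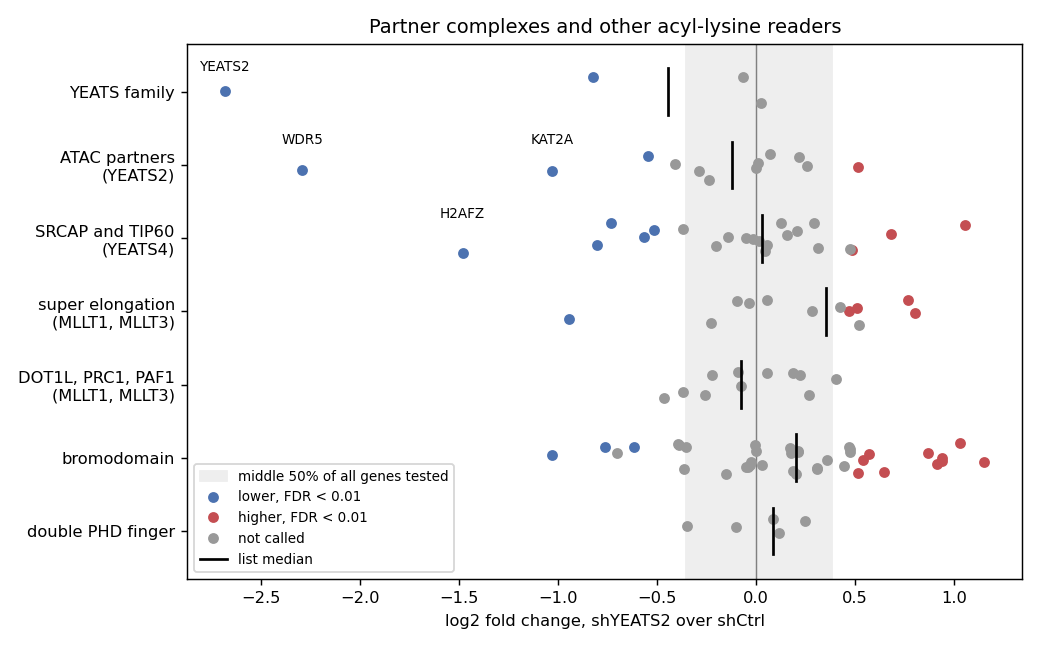
Log2 fold change of shYEATS2 over shCtrl (x axis) of every listed gene, by list (rows). The rows are the YEATS family, 4 lists of partner genes and 2 lists of other domain families that include readers. Genes are coloured by call at an FDR under 0.01. The list medians are black lines and the middle 50% of all genes is shaded. The super elongation and bromodomain medians (0.35 and 0.20) lie to the right of the median of all genes (-0.0019), and WDR5 lies nearest to YEATS2. KAT2A and KAT2B appear in the ATAC and the bromodomain rows, and BRD8 in the SRCAP and the bromodomain rows.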

How the data were processed

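The authors aligned the RNA-seq reads to hg19 and counted them per gene with HTSeq 0.6.1p1 (version per the submitters' processing notes). The study's methods name the RNA-Seq unified mapper as the aligner, whereas the submitters' notes list TopHat2 2.0.10 and Bowtie2 2.1.0 without a role. The deposited values used here are raw whole-number read counts. The deposited log2 fold changes, p-values and FDR values are the authors' own edgeR comparison and were not used. Counts of all 12676 genes (at least 10 reads in at least 2 libraries, met by all) were tested with edgeR 4.0.16 (R 4.3.3, glmQLFit and glmQLFTest) with TMM scaling and Benjamini-Hochberg adjustment at an FDR of 0.01. The method was also run on simulated counts with the same dispersion for every gene and fewer changed genes than were called here. Nothing is concluded from that run. Alternatives were DESeq2 1.42.0, exactTest, limma-trend (limma 3.58.1, pseudocount 1), other scalings and filters, a replicate block, an FDR of 0.05 and each library left out. Positions and exon lengths came from GENCODE v44 lifted to GRCh37, to which 12465 identifiers (98.3%) matched. The family members and lists were chosen with earlier results of these data known. Named from each list were up to 6 called genes with the lowest FDR and the uncalled gene with the highest mean count, and for each member the 3 genes nearest in pattern and the listed neighbours. Replicate noise was a biological coefficient of variation of 0.107, with a median standard error of 0.12 on the log2 scale.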

Additional observations from a re-analysis of the deposited data

How the results depend on the processing

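YEATS2 stayed called lower in all 14 alternatives, with log2 fold changes of -2.74 to -2.56, and YEATS4 stayed lower in 13 of 14. With 1 library left out, the other library of that group was assumed to vary like the other group. The log2 fold changes then ranged from -2.74 to -2.62 for YEATS2, from -0.999 to -0.661 for YEATS4, where 1 call was lost without shCtrl replicate 2, from -0.13 to 0.17 for MLLT1, where the sign turned negative without shCtrl replicate 2 (-0.11) and without shYEATS2 replicate 1 (-0.13), and from -0.10 to -0.03 for MLLT3. On total counts MLLT3 turned to 0.056, and over all genes 1166 were lower and 2363 higher, against 1581 and 1630 with TMM scaling. Neither MLLT1 nor MLLT3 was called in any alternative.

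Calls in the lists depended more on the setting, and the cause was not tested. On total counts 1 ATAC, 3 SRCAP and TIP60, 0 super elongation and 1 bromodomain gene were lower, and 16 bromodomain genes were higher. At an FDR under 0.05, higher calls were 5 for SRCAP and TIP60, 7 for super elongation, 1 for the DOT1L, PRC1 and PAF1 genes and 16 for bromodomain genes, and lower calls were 2 and 7 in the last 2 lists. Lower calls in these 2 lists were 1 and 5 with DESeq2 and 2 and 6 with exactTest. With 1 library left out, lower and higher calls ranged from 1 to 3 and 0 to 1 for ATAC, 2 to 5 and 1 to 3 for SRCAP and TIP60, 0 to 0 and 1 to 5 for super elongation, 0 to 1 and 0 to 0 for DOT1L, PRC1 and PAF1, and 1 to 4 and 5 to 12 for bromodomain genes. Over all genes, 850 to 2024 were lower and 775 to 1971 higher with 1 library left out, 2497 and 2596 with exactTest, and 3011 and 3093 at an FDR under 0.05. No partner or reader gene picked by the naming rule above changed its sign in any alternative. KAT14, DOT1L, BRD3, ATAD2, SRCAP and RUVBL1 were named outside that rule, and their signs in the alternatives were not read.

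The replicate numbers are shared between the groups, but with 2 pairs and no label that ties a number to a culture or a day they share only a number. Deviations from the group means of same-numbered libraries had a correlation of 0.403 over genes. With the replicate block the log2 fold changes were -2.68 for YEATS2, -0.83 for YEATS4, 0.02 for MLLT1 and -0.06 for MLLT3, all on the same side of the threshold. The DOT1L, PRC1 and PAF1 list then had 2 lower and 1 higher call and the bromodomain list 7 lower calls, and 2715 genes were lower and 2742 higher in all.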
